A study of Homo sapiens with 5 samples.

Results

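The expression of 52 mitosis and spindle genes was followed over 5 arrays, chosen by name as genes that act in mitotic entry, spindle assembly, chromosome segregation and cytokinesis. The choice was made with earlier results of these data known. Every probe set annotated to 1 of these genes alone was taken, 106 of the 54675 probe sets on the array, and the brightest probe set stood for its gene in summaries. All 52 genes were among the 11944 tested genes of 19775 named ones. The cells were IMR32, an established human neuroblastoma line, with a stable, doxycycline-inducible short hairpin RNA (shRNA) aimed at MEIS1b, a form of the homeobox gene MEIS1. The 4 induced arrays were from cells with 24, 48, 96 and 192 h of doxycycline, and the uninduced array was from cells at 0 h without it. All 5 carried the hairpin construct, and each was 1 array of total RNA on the Affymetrix U133 Plus 2.0 platform. No replicate of any time, no array of cells left without doxycycline for as long and no doxycycline array without the hairpin was among them, so time in culture, the drug and the hairpin cannot be told apart.

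Cells enter mitosis when cyclin B and CDK1 become active, with the kinases PLK1 and Aurora A building the spindle. Kinetochores, held at the centromere, then bind microtubules, and the spindle checkpoint holds back the ubiquitin ligase APC/C until every chromosome is attached. Most of these transcripts accumulate in G2 and M phase and decline when cells leave the cycle, so proliferating neuroblastoma cells carry them at high levels. Their promoters are known for a cell cycle homology region (CHR), bound by complexes built on the MuvB core, and for CCAAT boxes bound by NF-Y.

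Promoter windows of 250 bases before to 50 after the RefSeq start (GRCh38.p14) were matched for 44 of the 52 genes. These genes had 54 listed windows, and only the first listed window of each gene was read, so other starts were not searched. The CHR letters TTTGAA or TTCGAA, read on both strands, stood in 33 of the 44 windows (75%), against 11% of 9760 tested genes with a window. CCAAT, read on both strands, stood in 34 (77.3%), against 37% of tested genes, and 28 windows held both (63.6%, against 4.67%). The letters TGACAG, a core that MEIS proteins are known to bind, stood in 4 windows (9.09%, against 13%), those of SPC25, KIF20B, KIF18A and TOP2A. The share over all 27305 genes with a window was 16.6% for the CHR letters, 35.7% for CCAAT and 15.9% for TGACAG. Shown first are the windows of the 3 genes that fell in the trend below, KIF23 (chr15:69414099-69414398, plus strand), BUB1 (chr2:110678014-110678313, minus strand) and SPC25 (chr2:168890381-168890680, minus strand). They are followed by those of PLK1 (chr16:23678639-23678938, plus strand), which had 48.4% of its uninduced level at 96 h, and CENPE (chr4:103198294-103198593, minus strand), which was low at all induced times. Capitals mark the CHR, CCAAT and TGACAG letters on either strand.
KIF23: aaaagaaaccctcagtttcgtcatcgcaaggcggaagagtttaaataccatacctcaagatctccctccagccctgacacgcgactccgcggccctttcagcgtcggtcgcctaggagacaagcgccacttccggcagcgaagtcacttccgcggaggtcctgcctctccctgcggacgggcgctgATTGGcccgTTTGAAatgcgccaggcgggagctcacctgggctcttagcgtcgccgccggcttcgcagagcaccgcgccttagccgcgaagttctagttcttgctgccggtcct
BUB1: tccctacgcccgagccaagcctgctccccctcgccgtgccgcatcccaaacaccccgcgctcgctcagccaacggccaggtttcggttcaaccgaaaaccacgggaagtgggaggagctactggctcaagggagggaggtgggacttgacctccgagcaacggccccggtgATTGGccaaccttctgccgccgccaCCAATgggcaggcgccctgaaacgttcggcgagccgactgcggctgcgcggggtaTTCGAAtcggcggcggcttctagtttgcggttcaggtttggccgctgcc
SPC25: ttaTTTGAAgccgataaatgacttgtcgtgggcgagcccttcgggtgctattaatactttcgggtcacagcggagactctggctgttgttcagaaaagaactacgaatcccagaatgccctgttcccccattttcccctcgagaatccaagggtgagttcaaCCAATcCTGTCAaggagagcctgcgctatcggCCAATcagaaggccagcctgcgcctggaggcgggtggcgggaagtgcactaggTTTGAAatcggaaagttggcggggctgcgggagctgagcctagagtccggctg
PLK1: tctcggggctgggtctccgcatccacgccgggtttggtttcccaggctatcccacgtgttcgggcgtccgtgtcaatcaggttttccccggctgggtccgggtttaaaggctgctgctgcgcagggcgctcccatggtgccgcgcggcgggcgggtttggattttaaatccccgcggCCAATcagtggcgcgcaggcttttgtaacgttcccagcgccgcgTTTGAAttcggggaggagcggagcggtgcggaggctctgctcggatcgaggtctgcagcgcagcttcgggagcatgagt
CENPE: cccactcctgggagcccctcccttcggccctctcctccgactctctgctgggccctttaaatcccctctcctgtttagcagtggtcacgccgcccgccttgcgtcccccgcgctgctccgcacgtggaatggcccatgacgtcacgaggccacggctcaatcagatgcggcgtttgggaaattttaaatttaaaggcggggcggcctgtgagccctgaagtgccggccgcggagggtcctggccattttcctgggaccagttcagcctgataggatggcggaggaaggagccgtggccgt
The CHR letters began 55 bases before the start in KIF23, 29 before it in PLK1, 3 before it in SPC25 and at base 2 after it in BUB1. A further TTTGAA of SPC25 lay 247 bases before the start. None of the 3 letter sets stood in the CENPE window. These matches describe the windows only. The median fitted change over the course, defined below, was -0.33 for the 33 genes with CHR letters and -0.35 for the 11 without, a difference that was not tested.

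**Figure D1:**
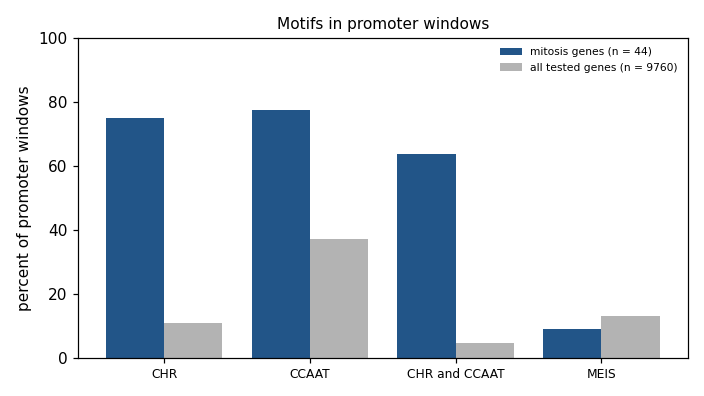
Share of promoter windows (percent, bars from 0) that hold each letter set on either strand, for 44 mitosis genes (blue) and 9760 tested genes (grey). The CHR letters stand in 75% of the mitosis windows and 11% of those of all tested genes, which include the mitosis genes.

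Across the arrays, the median signal of all probe sets lay between 16.0 and 19.0, and the 3' to 5' ratio ran from 1.02 to 1.08 for GAPDH and from 1.25 to 1.43 for ACTB. MEIS1, the targeted gene, was at 81.0%, 80.6%, 81.5% and 74.9% of its 0 h level at 24, 48, 96 and 192 h, with a limma adjusted p of 0.251 in the trend over time. Of 10 neuroblastoma markers 8 were annotated, and their summed signal was 9750 to 12909 in the induced arrays and 9812 at 0 h, with MYCN between 3957 and 4418. The summed signal of the 4 annotated blood markers was 22.7 to 26.2 at 24, 96 and 192 h, 39.3 at 48 h and 41.6 at 0 h. Over the 5 arrays it was 18.3 to 41.7 for 3 Schwann cell, 34.9 to 73.3 for 4 endothelial, 31.4 to 51.0 for 4 epithelial and 86.8 to 139.6 for 5 fibroblast markers.

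The mitosis genes were lower after doxycycline as a group, by a small amount, and most were lowest at 96 h. In order of time (24, 48, 96 and 192 h), their median log2 ratio to 0 h was -0.24, -0.20, -0.48 and -0.29, which corresponds to 84.9%, 87.0%, 71.8% and 81.9% of the uninduced level. The median over all tested genes stayed between -0.01 and 0.02. Ratios, percentages of the 0 h level and fitted changes are on the log2(signal + 4.7) scale. Of the 52 genes, 44 read below 0 h at all 4 induced times, against a background of 20.2% of tested genes. The other 8 were CDC25B, AURKA, BUB3, NDC80, SPC24, CENPN, KIF22 and ANLN. BUB3 alone read above 0 h at all 4 times. With 1 array a time, none of these ratios has a replicate check. The genes share the same arrays and the same cells, so 52 genes are not 52 independent observations. In RNA from whole cultures, fewer cells in mitosis and less of these RNAs per mitotic cell cannot be told apart.

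The dip at 96 h was seen in most role groups. In 41 of 52 genes the lowest of the 5 arrays was the one at 96 h, against 19.5% of tested genes. Among the 4 induced arrays alone it was again lowest in 41, against 22.7%. The level at 96 h was below that at 48 h in 45 genes, against 49.3%, and 25 genes had a log2 ratio under -0.5 at 96 h, against 7.96%. SPC25 (47.7% of the 0 h level), PLK1 (48.4%) and HMMR (59.5%) were lowest there. By 192 h, 44 genes read higher than at 96 h, against 46.8% of tested genes, with a median step of 0.17. The 8 that did not were CDK1, CDC25B, BUB1, BUB3, SPC24, KIF14, UBE2C and CDCA3. The mitotic kinases, a group of 3 genes, had the deepest group median at 96 h, -0.65. The 10 kinesins had -0.59 and the 4 cytokinesis genes -0.37. These medians depend on how genes were assigned to small groups, and their differences were not tested. In the group of ubiquitin-dependent exit, 1 of 3 genes was lowest at 96 h and the other 2 at 192 h. The log2 steps of these 2 from 96 to 192 h were small, -0.01 for UBE2C and -0.06 for CDCA3. The poly-A spike-ins, RNAs added before labelling, were also lowest at 96 h and read higher at 192 h. Their mean log2 difference from 0 h was 0.10, -0.45, -0.61 and -0.25 at 24, 48, 96 and 192 h. The earlier part of the course differed. At 24 h, on 1 array, the mitosis genes had a median of -0.24 and the spike-ins 0.10, and at 48 h -0.20 and -0.45. With array medians set equal, the 24 h median of the mitosis genes was -0.09 and that of all tested genes 0.15. With the spike-in level as a covariate in the trend described next, the median fitted change of the 52 genes was -0.21, in place of -0.33, and none passed. The part of spike-in level in the 96 h dip itself was not tested.

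**Figure D2:**
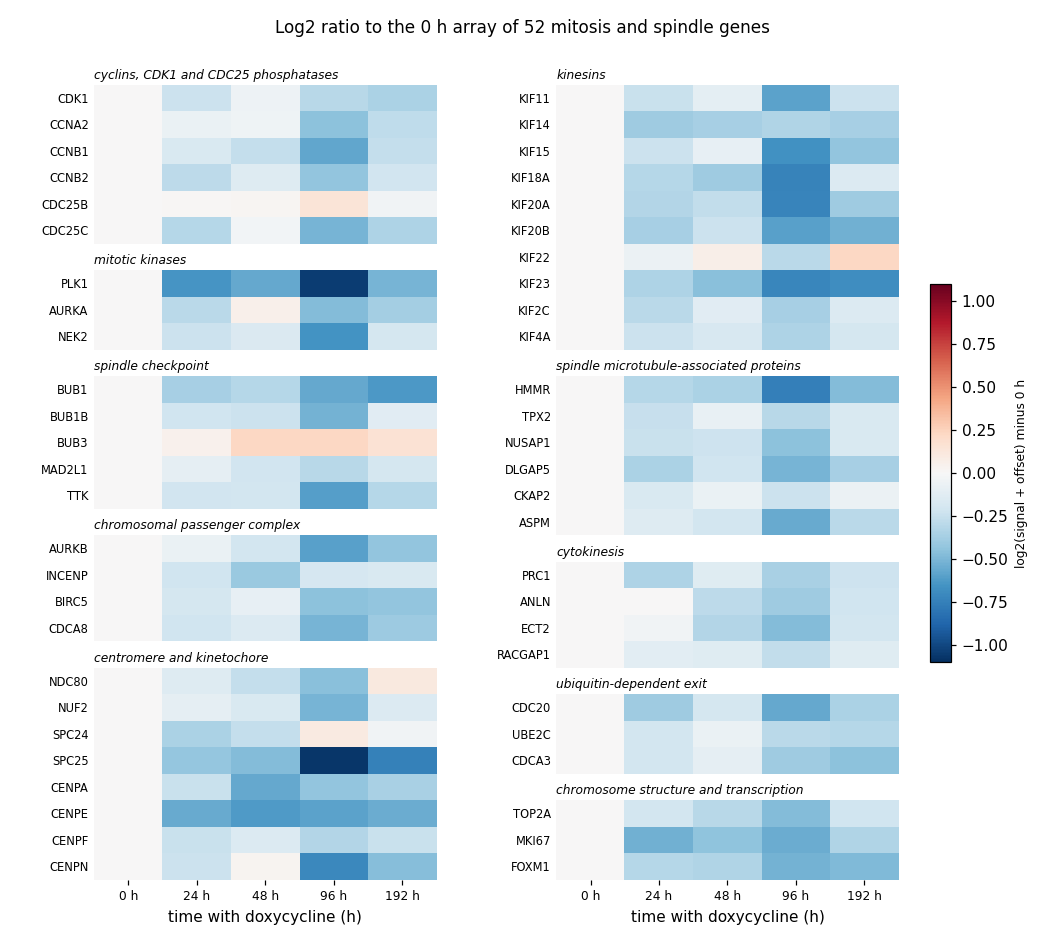
Log2 ratio to the 0 h array (colour, on the log2(signal + 4.7) scale) of the 52 genes in rows, grouped by role, against time with doxycycline in columns. Blue is lower and red higher than at 0 h. The 96 h column is the darkest, SPC25 and PLK1 are below -1 there, and BUB3 is above 0 at all 4 induced times.

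The change along the course was tested with a limma trend on the time step. The slope was multiplied by the 4 steps to give a fitted change, and p-values were adjusted by Benjamini-Hochberg over 11944 genes. Of the 52 mitosis genes 3 fell and 0 rose, where 1.46% of all tested genes fell and 2.02% rose. The genes that fell were the kinesin KIF23, the checkpoint kinase BUB1 and the kinetochore subunit SPC25. The fitted change was negative in 48 of 52, against 49.7% of tested genes, and the unadjusted p was under 0.05 with a negative change in 20, against 8.55%. The median was -0.33, against 0.00 over all tested genes, and it ran from -0.85 for SPC25 to 0.20 for BUB3. With the 0 h array left out, 37 had a negative change and the median was -0.15, and with the 192 h array left out the median was -0.59. A straight line takes no account of the return at 192 h. Leaving out the 0, 48 or 96 h array, or adding the spike-in level as a covariate, lost all 3 calls, and leaving out the 24 h array kept BUB1 alone. With the 192 h array left out 5 genes passed, namely CCNB1, HMMR, KIF20A, PLK1 and SPC25.

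Among the drivers of mitotic entry, the cyclins B and A and CDK1 were lowest at 96 or 192 h and none passed. CCNB1, the main activator of CDK1 at mitotic entry, read 2098.1, 1870.0, 1752.4, 1409.8 and 1753.4 at 0, 24, 48, 96 and 192 h. CCNA2, the cyclin of S phase and G2, read 769.0, 730.9, 743.5, 562.8 and 632.0 at these times. CDK1 itself, the mitotic cyclin-dependent kinase, read 2846.7, 2419.9, 2732.3, 2309.1 and 2238.1. CCNB1 and CCNA2 thus had their lowest level at 96 h and CDK1 at 192 h, although the next brightest CDK1 probe set was lowest at 96 h with 1393.3. The fitted log2 change was -0.37 ± 0.16 for CCNB1 (SE, adjusted p = 0.28 by limma), -0.37 ± 0.15 for CCNA2 (adjusted p = 0.231 by limma) and -0.30 ± 0.14 for CDK1 (adjusted p = 0.308 by limma). Both CDC25 genes encode phosphatases that switch CDK1 on, and they differed in level over time: CDC25C read 190.9 at 96 h, against 274.1 at 0 h, while CDC25B stayed between 585.2 and 665.4 (fitted change 0.02). CCNB2, the second B-type cyclin, read 1374.3, 1125.6, 1245.9, 1013.1 and 1188.4, with its dip again at 96 h.

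The role group of mitotic kinases held only PLK1, AURKA and NEK2, and its median at 96 h, the deepest, was the NEK2 value (-0.65). The kinases BUB1, TTK and AURKB were placed in other groups and had -0.57, -0.61 and -0.60 at 96 h. PLK1, which drives centrosome maturation and mitotic entry, read 659.6, 419.7, 446.2, 316.7 and 461.8 over the same times. It was already at 63.9% of the 0 h level at 24 h, the lowest of the 52 genes at that time. Its fitted change of -0.57 ± 0.26 did not pass (limma adjusted p = 0.284). AURKA, which acts at spindle poles, read 1112.0, 903.0, 1154.2, 799.0 and 857.4 at 0, 24, 48, 96 and 192 h, so its 48 h array was above 0 h. NEK2, which separates the centrosomes, read 376.6 at 96 h and between 505.3 and 595.6 on the other arrays.

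Of the 5 spindle checkpoint genes, 4 read below 0 h at all 4 induced times and BUB3 read above it, a difference that was not tested. BUB1, a kinase that marks the centromere and recruits checkpoint proteins, read 614.2, 475.7, 493.8, 413.3 and 393.8 at 0, 24, 48, 96 and 192 h. It fell, with a fitted log2 change of -0.59 ± 0.15 (limma adjusted p = 0.0498). This probe set was lowest at 192 h. The second brightest BUB1 probe set read 321.0, 264.0, 271.2, 208.9 and 243.4, so it was lowest at 96 h, and it did not pass among all probe sets (limma adjusted p = 0.291). TTK, the kinase that starts the checkpoint signal, read 493.1, 424.8, 427.5, 322.3 and 395.7 (fitted change -0.41 ± 0.17, adjusted p = 0.256). BUB3, the WD-repeat partner of BUB1 and BUB1B, read 2944.1, 3039.5, 3441.5, 3441.9 and 3288.5. Its fitted change of 0.20 ± 0.14 did not pass (adjusted p = 0.527). BUB1B and MAD2L1, both parts of the APC/C inhibitor, were lowest at 96 h, at 555.1 and 2061.0 against 795.7 and 2551.3 at 0 h.

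Of the chromosomal passenger complex, which corrects faulty attachments and later acts in cytokinesis, all 4 genes had a negative fitted change and none passed. The kinase AURKB read 445.6, 422.1, 386.5, 293.3 and 328.7 at 0, 24, 48, 96 and 192 h, with a fitted change of -0.55 ± 0.16 (limma adjusted p = 0.0885). BIRC5, survivin, read 1977.5, 1726.7, 1858.1, 1440.9 and 1459.1 in its brightest probe set (-0.45 ± 0.14, adjusted p = 0.117). The scaffold INCENP, the dimmest of the 52, read between 34.6 and 41.8 in the induced arrays, against 47.4 at 0 h (-0.12 ± 0.32). CDCA8, borealin, read 580.7, 498.3, 522.3, 405.6 and 439.2, also with its lowest level at 96 h.

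Kinetochore genes held both the lowest fitted change and a positive one, within a single complex. SPC25, a subunit of the NDC80 complex that binds microtubules, read 434.5, 323.0, 311.5, 205.0 and 257.3 at 0, 24, 48, 96 and 192 h. It fell, with a fitted log2 change of -0.85 ± 0.21 (limma adjusted p = 0.0451). Its direct partner SPC24 read 155.5, 121.3, 128.8, 166.7 and 151.3, and its fitted change of 0.15 ± 0.22 did not pass (adjusted p = 0.818). SPC24 was thus at its highest where SPC25 was at its lowest, a difference between the subunits that was not tested. NDC80 and NUF2, the other subunits, were lowest at 96 h (276.7 and 1099.5) and stood at 411.7 and 1412.0 at 192 h, against 382.0 and 1572.3 at 0 h. CENPN, which reads the centromeric nucleosome, had a fitted change of -0.56 ± 0.23 (adjusted p = 0.221). CENPE, a kinesin of the kinetochore singled out after its values were seen, read 321.3 to 339.6 in the 4 induced arrays, against 498.4 at 0 h. The histone variant CENPA, which marks the centromere, was lowest at 48 h with 187.5, against 279.0 at 0 h. CENPF, a large protein of the outer kinetochore, read 1679.0, 1418.7, 1516.0, 1341.6 and 1412.9 in its brightest probe set. Its other probe set past the signal filter read 452.2, 345.8, 328.7, 270.1 and 394.8. The log2 ratio at 96 h was -0.32 in the first and -0.73 in the second, so the depth of the dip differed between them.

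The 10 kinesins, motors that slide, carry or shorten microtubules, had a median fitted change of -0.31, and 9 of them read below 0 h at all 4 induced times. KIF23, the motor of the centralspindlin complex that builds the midzone, read 330.9, 259.9, 239.8, 199.4 and 204.7 at 0, 24, 48, 96 and 192 h. It fell, with a fitted log2 change of -0.69 ± 0.17 (limma adjusted p = 0.0417). Its other probe set that passed the signal filter was dim and read 44.1, 20.3, 56.5, 28.3 and 19.7. KIF15, which backs up KIF11 in holding the poles apart, read 649.5, 550.3, 611.6, 406.7 and 480.1 (-0.52 ± 0.18, adjusted p = 0.161). KIF22, a chromosome-arm motor, read 478.2, 458.3, 499.9, 387.6 and 561.6. It had the only positive fitted change of the kinesins (0.09 ± 0.19), with its highest level at 192 h. The remaining kinesins had no call. KIF20A, which brings Aurora B to the midzone, read 1204.1, 964.8, 995.8, 726.9 and 917.3, and KIF20B, which acts in cytokinesis, read 418.0, 323.2, 354.1, 274.4 and 288.4. KIF11, the motor that pushes the poles apart, read 719.6, 608.1, 666.2, 476.3 and 608.9. These 3 were lowest at 96 h, and KIF20B returned least. KIF18A, which dampens chromosome movements, read 235.3, 188.8, 178.4, 139.9 and 211.8, and its step of 0.58 between 96 and 192 h was the highest of the 52 genes. KIF2C, a microtubule depolymerase, and KIF4A, a chromosome motor, read 796.4 and 460.9 at 96 h, against 1027.6 and 585.4 at 0 h. KIF14, a motor of the midbody, read 363.7 to 378.6 in the 4 induced arrays, against 477.1 at 0 h, with no further dip at 96 h in this probe set. Its other probe set read 241.5, 178.0, 164.1, 145.5 and 180.4 and was lowest at 96 h, so its probe sets differed in shape.

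Spindle microtubule-associated proteins were below 0 h at every induced time in 6 of 6 genes and lowest at 96 h in all 6, and none passed. HMMR, a spindle pole protein, read 948.4, 760.7, 744.0, 562.4 and 679.8 at 0, 24, 48, 96 and 192 h (fitted change -0.56 ± 0.17, limma adjusted p = 0.108). ASPM, also a pole protein and known for its role in brain size, read 1436.3, 1301.3, 1251.0, 975.7 and 1171.1 (-0.40 ± 0.16). These were the 2 lowest fitted changes of the 6. DLGAP5, which stabilises spindle fibres, read 870.2, 683.6, 749.1, 608.4 and 672.7. NUSAP1, which bundles microtubules near chromosomes, read 791.8 at 96 h, against 1087.1 at 0 h. TPX2, the activator of Aurora A, read 1127.0 at 96 h, against 1393.1 at 0 h. CKAP2 had the fitted change nearest 0, with signals between 1036.9 and 1223.2. The genes grouped under cytokinesis had a median of -0.37 at 96 h, the mildest of the groups but close to -0.39 for ubiquitin-dependent exit. The RhoA activator ECT2 read 719.4 at 96 h, against 1005.6 at 0 h. The ring scaffold ANLN read 402.6 at 96 h, against 529.6 at 0 h, and RACGAP1, the partner of KIF23 in centralspindlin, read 1984.0 at 96 h, against 2401.1 at 0 h. The fitted changes of ECT2 (-0.34), ANLN (-0.33) and RACGAP1 (-0.17) did not pass. PRC1, the midzone bundler, read 1750.3, 1386.4, 1594.5, 1365.6 and 1497.1, so its 24 h and 96 h arrays were nearly alike.

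For mitotic exit, CDC20, the APC/C activator that the checkpoint restrains, read 938.9, 713.9, 821.2, 635.4 and 735.2 at 0, 24, 48, 96 and 192 h (fitted change -0.35 ± 0.17, limma adjusted p = 0.332). CDCA3, which promotes mitotic entry through WEE1 degradation, read 475.7, 412.6, 444.3, 362.3 and 346.9 (-0.43 ± 0.15). UBE2C, the ubiquitin-conjugating enzyme of the APC/C, read 2023.2 to 2388.2 in the induced arrays, against 2512.2 at 0 h. CDCA3 and UBE2C were lowest at 192 h rather than 96 h, although UBE2C was nearly level, with 2040.2 at 96 h. The second CDCA3 probe set was lowest at 96 h with 123.2. FOXM1, the transcription factor that drives many G2/M genes, read 504.3, 403.7, 400.7, 350.1 and 358.6 (-0.47 ± 0.15, adjusted p = 0.12). MKI67, which encodes the proliferation marker Ki-67, had most of its drop by 24 h in its brightest probe set, with 688.5, 475.7, 504.8, 471.2 and 547.7. The next brightest read 620.6, 462.4, 525.8, 444.3 and 494.2. Another read 310.8, 255.3, 258.7, 236.7 and 315.4 and was above 0 h at 192 h. The dimmest read 259.1, 160.8, 240.9, 205.0 and 221.5. TOP2A, the topoisomerase that untangles sister DNA, read 1279.4 at 96 h, against 1779.9 at 0 h. Neither FOXM1, MKI67 (adjusted p = 0.546) nor TOP2A (0.396) passed.

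**Figure D3:**
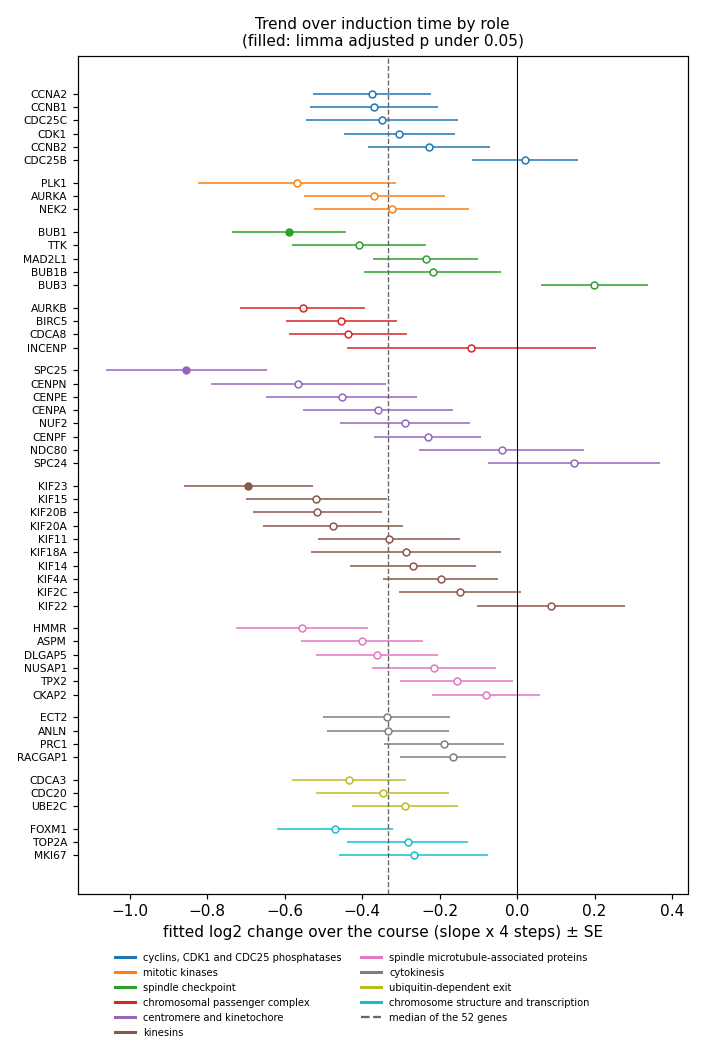
Fitted log2 change over the course (x axis, slope times 4 steps, bars ± SE from the limma trend) for each of the 52 genes, coloured by role. Filled points have an adjusted p under 0.05 and mark BUB1, SPC25 and KIF23, and the dashed line is the median, -0.33.

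Probe sets of the same gene mostly moved alike. Of the 106 probe sets 93 passed the signal filter, 82 of these had a negative fitted change, and their median was -0.32, against 0.02 over all 26805 probe sets tested. Of 26 genes with several such probe sets, 22 were negative in all, 1 was positive in all, and BUB3, CKAP2 and TOP2A had both signs, each with a dim probe set that disagreed. When every probe set was tested, with adjustment over 26805, 1 of the 93 fell and 0 rose (0.742% of all probe sets fell and 1.09% rose). It was a BIRC5 probe set dimmer than its brightest one, with 455.6, 377.5, 368.6, 272.4 and 267.2 at 0, 24, 48, 96 and 192 h (fitted log2 change -0.79 ± 0.16, limma adjusted p = 0.025). The brightest probe sets of KIF23, BUB1 and SPC25 did not pass that larger adjustment. Probe sets that CENPA and CKAP2 share with other genes were left out.

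The 4 doxycycline arrays were also set against the 0 h array, with the spread of the single uninduced array taken from the induced ones. CENPE, PLK1 and MKI67, all low from 24 h on in their brightest probe sets, had the smallest p-values here. CENPE averaged 8.40 in doxycycline and was 8.97 without it on the log2 scale, a difference of -0.58 ± 0.13 (SE). Its unadjusted p was 0.00161 and its limma adjusted p 0.517. PLK1 averaged 8.68 in doxycycline and was 9.38 without it (-0.69 ± 0.20, adjusted p = 0.687), and MKI67 differed by -0.46 ± 0.14 (adjusted p = 0.722). In all, 50 of 52 differences were negative (background 50%), with a median of -0.29, and 14 had an unadjusted p under 0.05 (background 2.31%). By limma 0 of the 52 and 0 of all 11944 genes passed in either direction (background 0%). Unadjusted p-values under 0.05 were found in 276 lower and 413 higher genes of all tested.

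Further mitotic genes were read from 5 lists. They covered the kinetochore, condensin and cohesin, APC/C and entry or exit control, spindle poles, and DREAM and MuvB complexes. The last list also held the regulators E2F1, RB1, E2F7 and E2F8. Of the 121 genes 116 were tested, 3 fell and 0 rose, where 1.46% of all tested genes fell and 2.02% rose. A negative fitted change was found in 102, against a background of 49.7%, with a median of -0.27. The lists differed in shape: condensin and cohesin genes were lowest at 96 h in 16 of 21, spindle pole genes in 15 of 23 and kinetochore genes in 15 of 27. APC/C and entry or exit genes were lowest there in 11 of 29 and DREAM and MuvB genes in 4 of 16, against 19.5% of tested genes. Of these last lists 12 of 29 and 8 of 16 genes were higher at 192 h than at 96 h, against 46.8%. MELK, a kinase that is high in dividing cells, read 849.1, 678.6, 605.2, 465.3 and 462.0 at 0, 24, 48, 96 and 192 h (-0.91 ± 0.14, limma adjusted p = 0.0048). E2F7, a repressor of the E2F family, fell by 0.94 on the log2 scale (adjusted p = 0.0114), and GPSM2, which orients the spindle, fell by 0.56 (0.0458). All 3 read lower at 192 h than at 96 h, with log2 steps of -0.01 for MELK, -0.08 for E2F7 and -0.18 for GPSM2. They were picked by a straight-line fit, which favours genes without a return at 192 h, so this shape is no separate result. The lowest fitted changes of the lists without a call were -0.64 for OIP5 among kinetochore genes and -0.63 for NCAPD2 among condensin and cohesin genes. ARHGAP11A, at -0.87, was the lowest of the spindle pole list and did not pass.

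The S phase genes reached a median of -0.32 at 96 h, against -0.48 for the mitosis genes. All 27 tested had a negative fitted change (median -0.31). Of these 2 fell, the helicase subunit GINS1 (-0.59) and the thymidine kinase TK1 (-0.58), and 0 rose, where 1.46% and 2.02% of all tested genes did. At 24 h their median was -0.05, against -0.24 for the mitosis genes. The list of D cyclins and CDK inhibitors also held the kinases CDK4 and CDK6. Of its 9 tested genes 1 rose and 0 fell, where 2.02% and 1.46% of all tested genes did. The median fitted change of the 9 was 0.01. The gene that rose was CDKN1C, the inhibitor p57, with 140.4, 114.1, 149.1, 217.0 and 264.1 at 0, 24, 48, 96 and 192 h (1.07 ± 0.24, limma adjusted p = 0.0281). The lowest of that list was CCND1, with -0.32. Differences between these lists were not tested.

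**Figure D4:**
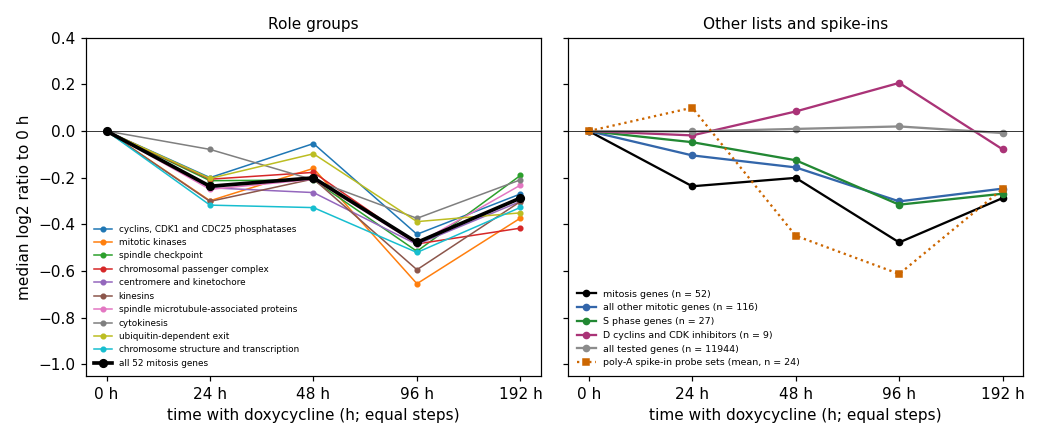
Median log2 ratio to 0 h (y axis) against time with doxycycline in equal steps (x axis), for the role groups and all 52 genes (left) and for other lists and the mean of 24 poly-A spike-in probe sets (right). The 52 genes reach -0.48 at 96 h, the S phase genes -0.32, the spike-ins -0.61, and all tested genes stay near 0.

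**Figure D5:**
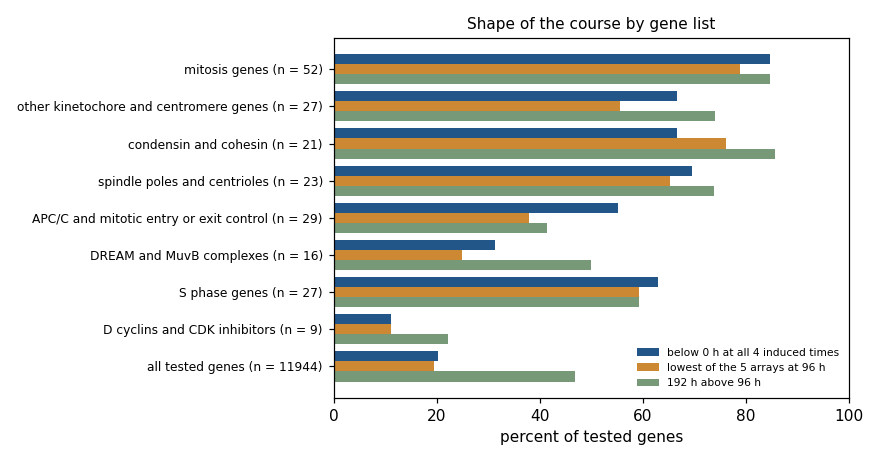
Percent of the tested genes of each list (bars from 0) that read below 0 h at all 4 induced times, were lowest of the 5 arrays at 96 h, or were higher at 192 h than at 96 h. For the mitosis genes the bars stand for 44, 41 and 44 of 52, and for all tested genes they are 20.2%, 19.5% and 46.8%.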

How the data were processed

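The authors deposited 1 table of log2 values for 5 arrays. MAS5 and GCOS are named in the submitters' processing notes, with no version. The log2 scale, a floor at a signal of 1 and the scaling were read from the values, since 100% of the signals came within 0.01 of whole steps of 0.1 and the trimmed mean (2% off each end) of every array was 100.02 or 100.03. Precision is limited by the small number of arrays, and low MAS5 signals are noisy, with 5.34% to 8.15% of probe sets at the floor.

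Signals were returned to the linear scale, 4.7 was added and log2 taken. Probe sets with 1 gene in GEO's platform annotation were used (41097, with 1801 for several genes and 11777 for none). Of these 41043 matched the RefSeq table of GRCh38.p14, which changed 0 symbols. After 62 control probe sets were left out, those averaging 17.9 or more in signal were tested. Fits used limma 3.58.1 in R 4.3.3 with eBayes and trend=TRUE (residual degrees of freedom 3, prior 9.07), and were two-sided with a threshold of 0.05. On simulated courses the trend recovered 2% of genes with a log2 change of 0.5, 33.2% with 1 and 75.6% with 2. A gene that did not pass may thus still have changed by such amounts. A second fit set doxycycline against none (prior 6.44). Replicates, scan dates and detection calls were not analysed here. The p-values therefore reflect how single arrays scatter about a line or, in the second fit, about the induced mean. In both fits eBayes drew much of each gene's variance from the other genes, and no p-value measures a spread between replicates. Alternatives changed the offset, filter, scaling, probe set choice, prior, covariate, time scale and arrays.

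The members, gene lists and tests were chosen with earlier results of these data known. Named by rule were KIF23, BUB1, CDK1, CCNB1, PLK1, AURKA, AURKB, FOXM1, TOP2A, MKI67, genes past the threshold, the 2 lowest and 1 highest fitted changes of each role group, and, in the other lists, genes past the threshold and the lowest. Other genes given with values, such as CCNB2, CENPF, KIF11 and TPX2, were named outside this rule.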

Additional observations from a re-analysis of the deposited data

How the results depend on the processing

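No paired analysis was possible because each time has 1 array. The number of mitosis genes that fell in the trend, 3 as reported, was 0 without the signal filter, 0 with the mean of a gene's probe sets, 0 with trend=FALSE, 0 with the spike-in covariate, 0 with time in hours and 1 with quantile normalization. With 1 array left out in turn it was 0 to 5. The probe sets that fell, 1 as reported, were 0 without the filter, with trend=FALSE, with the spike-in covariate and with time in hours, 2 with array medians set equal, and 0 to 1 with 1 array left out. Over all 14 alternatives KIF23 passed in 4 (limma adjusted p 0.0402 to 0.422, fitted change -0.91 to -0.51), BUB1 in 2 (0.0394 to 0.451, -0.70 to -0.39) and SPC25 in 4 (0.0155 to 0.417, -1.30 to -0.62), and the sign of all 3 stayed negative. The median over the 52 genes was -0.21 with the spike-in covariate, -0.59 when the 192 h array was left out and -0.15 when the 0 h array was, with 37 negative in that last setting. The cause of these shifts was not tested. Among all genes 174 fell and 241 rose as reported, 5 and 16 without the filter, 8 and 14 with trend=FALSE, and 112 and 118 with the spike-in covariate. They were 69 and 121 with the 0 h array left out, 107 and 147 with the 96 h array left out and 97 and 143 with the 192 h array left out. With array medians set equal 252 fell and 194 rose, the median of all tested genes moved to -0.11 and that of the 52 genes to -0.44.

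The count below 0 h at every induced time was 39 to 45 under the offset, filter, scaling and probe set alternatives and 45 to 46 with 1 induced array left out. The count lowest at 96 h was 40 to 45 and the count higher at 192 h than at 96 h was 44 to 50. For the first count, leaving out arrays and averaging probe sets were chosen after seeing the data, as were all alternatives for the other 2 counts and, for the probe sets, trend=FALSE, the covariate, hours and leaving out arrays. In the comparison of doxycycline with none, 0 mitosis genes passed under any alternative, and among all genes 9 passed with array medians set equal and 1 without the 48 h array.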

Other observations

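The values of CDKN1A and MYBL2, regulators of the cell cycle outside the 52 genes, were picked after they were seen. CDKN1A, the p53-inducible CDK inhibitor p21, read 262.5, 581.2, 369.0, 489.2 and 332.5 at 0, 24, 48, 96 and 192 h, so all 4 induced arrays were above the uninduced one and the highest was at 24 h. Its fitted log2 change of 0.17 ± 0.35 did not pass (limma adjusted p = 0.878). MYBL2, the MuvB partner B-MYB, read 586.9, 400.3, 358.0, 375.0 and 470.0, with its lowest level at 48 h (-0.29 ± 0.23, adjusted p = 0.603).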
